A study of Mus musculus with 2 samples.

Results

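Transcripts of 46 genes for translation factors were compared between RAW264.7 cells kept in 2D and in 3D culture. The genes were chosen by name, as the initiation factors of the eIF2, eIF2B, eIF3 and eIF4 groups with their partners, the elongation factors and the release and recycling factors, and each of the 46 names matched exactly 1 of the 52550 gene identifiers in the deposited counts. RAW264.7 is an established line of macrophage-like mouse cells from a tumour induced by the Abelson leukaemia virus. Both groups held untreated cells of this line, and they differed in the labels only by the culture method, and how the 3D cultures were formed is not stated there. There was 1 library of polyadenylated RNA for each method, so no test across replicates was possible and no p-value is given.

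Protein synthesis starts when eIF2 with GTP carries the initiator tRNA to the small ribosomal subunit, which eIF3, eIF1 and eIF1A prepare for scanning. The eIF4 factors recognise the capped mRNA and unwind its leader, and the poly(A) binding protein holds the other end. eEF1A and eEF2 then drive elongation, eRF1 and eRF3 end it at the stop codon, and ABCE1 splits the ribosome for another round. Control acts at the exchange of GDP on eIF2 by eIF2B, at the cap through the eIF4E-binding proteins, and at eEF2 through its kinase. Macrophages use these switches to adjust protein output quickly when they are activated.

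The libraries held 14371084 counts from 2D and 16652503 from 3D culture, and the members had between 405 and 209468 counts each. Values are counts per 1000000 after TMM scaling (CPM), and ratios are 3D over 2D with exact 95% intervals, which cover counting error only, since reads are not independent molecules. Genes that differed 2-fold or more are called higher or lower. In bulk RNA a change in the number of cells of a type and a change in RNA per cell cannot be told apart. Defining macrophage markers were present, with 10 of 10 measured and a summed level of 3497 CPM in the 2D and 9845 CPM in the 3D library. Lyz2 and Cd68 had the highest levels of these in both libraries. Of the 10, 6 were higher, 0 were lower and 7 lay above a log2 ratio of 0. Itgam, Fcgr1 and Mpeg1 lay below it, at -0.45, -0.54 and -0.09. Over all measured genes 18.7% were higher and 20.8% lower. Scaled to total counts, 5 of these markers were higher and 2 lower, against 5.59% and 36.5% of all genes. After adjustment for GC content, exon length and expression 1 was higher and 0 lower, against 10.5% and 9.75%. Their adjusted median log2 ratio was 0.12. Of 8 hepatocyte markers 2 were measured, Alb with 8 and 232 counts and Ahsg with 1 and 38 counts. The summed hepatocyte level was 1.19 CPM in 2D and 23.1 CPM in 3D, Trf was at 0 in both libraries, and the part of these transcripts in the results was not tested. Of 6 fibroblast and 6 lymphocyte markers 0 were measured, and of 7 for epithelium and endothelium 1 was, Pecam1 at 1.19 and 1.92 CPM.

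Under TMM scaling 32 of the 46 translation factor transcripts had a log2 ratio above 0, and scaled to total counts 25 did. By the 2-fold rule 20 of the 46 members were higher in 3D, 2 were lower and the other 24 lay between. Over all 11673 measured genes (a mean of at least 1 CPM), 18.7% were higher and 20.8% were lower. The median log2 ratio of the members was 0.80, against 0.05 for all measured genes. The gap was smaller among highly expressed genes. Of protein-coding genes averaging 100 CPM or more, 35.4% were higher and 6.40% lower, and their median log2 ratio was 0.68. Of the 41 members at that level 46.3% were higher and 4.88% lower, and their median was 0.85. Scaling to total counts in place of TMM shifted the median of all genes by -0.61 and gave 10 higher and 6 lower members, where 5.59% and 36.5% of all genes were called. The members' median was then 0.20 against -0.56 for all genes, so it lay above the median gene by 0.75 under TMM and by 0.76 under total counts. The higher members that lost their call under total counts were Eif1, Eif2b4, Eif2b5, Eif3c, Eif3h, Eif3i, Eif4a3, Eef1d, Eef1g and Eif5a. The 20 and 2 calls remained with DESeq2 size factors (19.3% of all genes higher and 20.2% lower) and upper-quartile factors (19.2% and 20.4%). They also remained with a minimum mean of 5 CPM (19.1% and 17.3%), a pseudocount (16.6% and 18.1%) and protein-coding genes alone (16.3% and 20.3%). The same calls were made without the CPM filter, over 15192 genes with more than 3 counts in a library (17.6% and 25.9%). At 1.5-fold 25 members were higher and 6 lower, against 31.7% and 30.4% of all genes. The members' summed counts were 3.29% of the 2D library (95% Wilson interval 3.28% to 3.30%) and 4.23% of the 3D library (4.22% to 4.24%). Without Eef1a1 and Eef2, the most abundant members, the shares were 1.72% (1.72% to 1.73%) and 1.90% (1.90% to 1.91%).

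**Figure D1:**
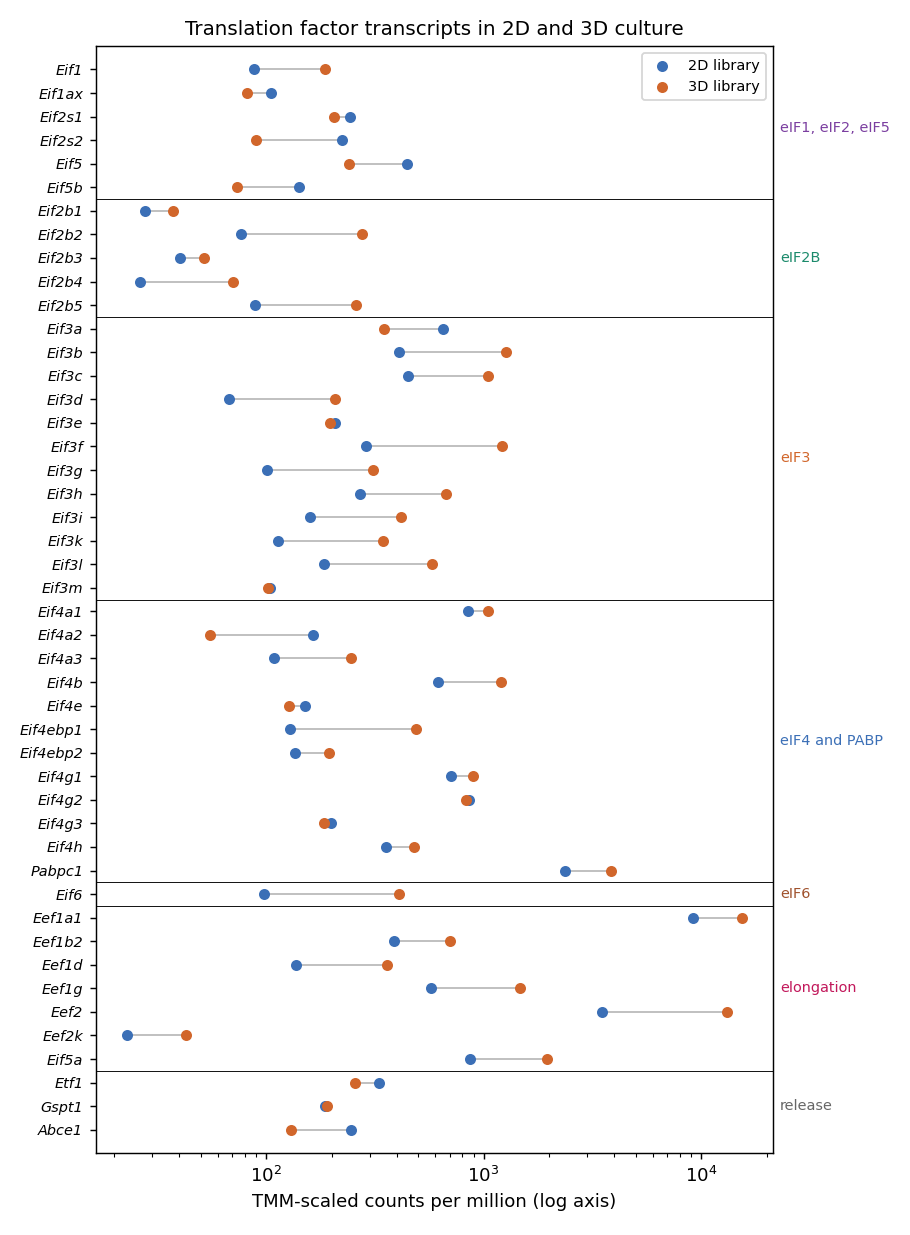
Level of each of the 46 translation factor transcripts in the 2D (blue) and the 3D (orange) library, in TMM-scaled CPM on a log axis, grouped by role; each point is 1 library. eIF3, eIF2B and elongation factor points mostly lie to the right in 3D, and Eif2s2 and Eif4a2 lie to the left.

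Members split by the composition of their transcripts. All 13 members whose principal transcript had a GC content under 45% lay below a log2 ratio of 0, from -1.57 to -0.04, and 2 of them were called lower. From 45% to 50%, 3 of 10 members were higher, with a median log2 ratio of 0.73. From 50% to 55%, 11 of 17 were higher with a median of 1.18, and at 55% and over 6 of 6 were higher with a median of 1.74. Measured protein-coding genes in the same GC classes had medians of -1.03, -0.24, 0.41 and 0.86, and those with a mean of at least 100 CPM had medians of -0.49, 0.28, 0.91 and 1.23. Of 2366 measured protein-coding genes under 45%, 297 lay above 0 and 51.0% were called lower. In the classes from 45% upward 5.37%, 22.5% and 42.2% were called higher. At 100 CPM or more 26.4% were lower under 45%, and 14.4%, 43.0% and 65.8% were higher in the classes above it. Only 5 of the 46 members had a mean under 100 CPM. The other 41 members had medians of -0.62, 0.80, 1.25 and 1.84 in these classes. Against protein-coding genes of at least 100 CPM, their median was lower in the class under 45% and higher in the other classes. The share called lower under 45% went the other way, at 16.7% of 12 members against 26.4% of those genes. Across the 46 members the log2 ratio correlated with GC content at Pearson r = 0.81 and Spearman rho = 0.79, and across 10538 protein-coding genes at 0.60 and 0.63. These correlations run over genes that share the same pair of libraries, so they describe those libraries and the genes are not independent replicates.

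**Figure D2:**
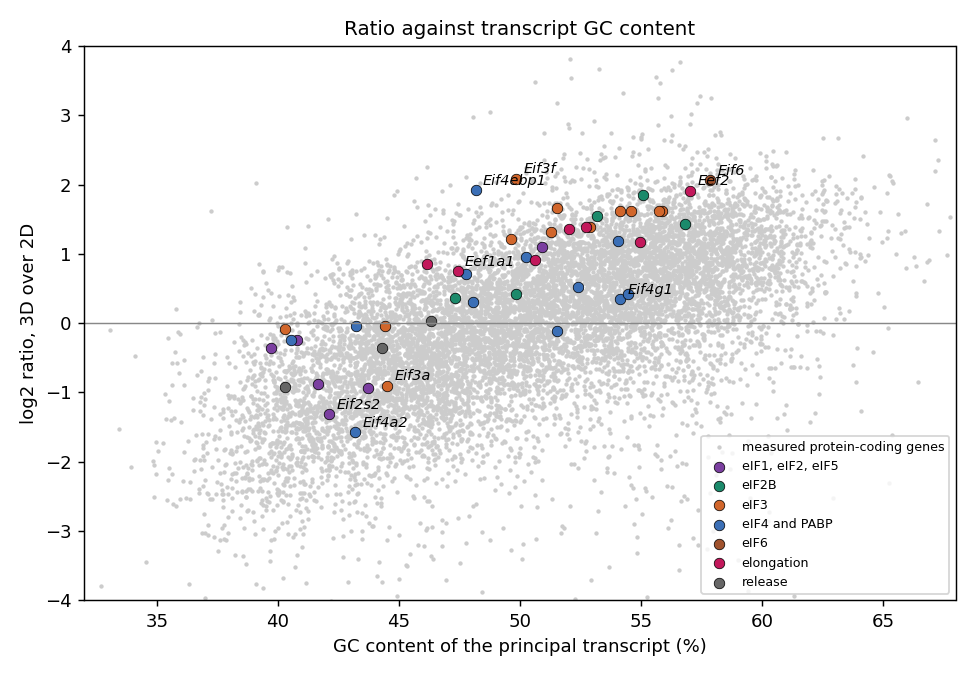
Log2 ratio of 3D over 2D (vertical axis) against the GC content of the principal transcript in percent (horizontal axis), for measured protein-coding genes (grey; the axes leave out a few extremes) and the 46 members coloured by role. Members climb with GC content together with the grey points; Eif4ebp1 and Eif3f sit high for their GC content, at log2 ratios of 1.92 and 2.08.

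A spline adjustment for exon length, GC content and mean expression, fitted over all measured genes, removed most of the calls. It left 5 members at least 2-fold higher and 0 lower, where 10.5% and 9.75% of all genes were called in these directions, and the median of the members was 0.20 against 0.02 for all genes. Of the 20 higher members, 4 stayed past 2-fold, 17 stayed above 0 and 3 turned below it. Adjustment for GC content alone left 19 higher and 0 lower, against 13.0% and 12.5% of all genes, with 14 of the 20 still past 2-fold. With the GC content of principal transcripts it left 21 higher and 0 lower, against 12.1% and 12.2%. An adjustment that used the principal transcript, the annotated main coding form, in place of the longest transcript and all exons was chosen after the data were seen, because the longest transcript of some members keeps an intron. It left 3 higher and 1 lower, against 9.57% and 9.40% of all genes. Eif3f and Eif4ebp1 were past 2-fold under each of these 4 adjustments.

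**Figure D3:**
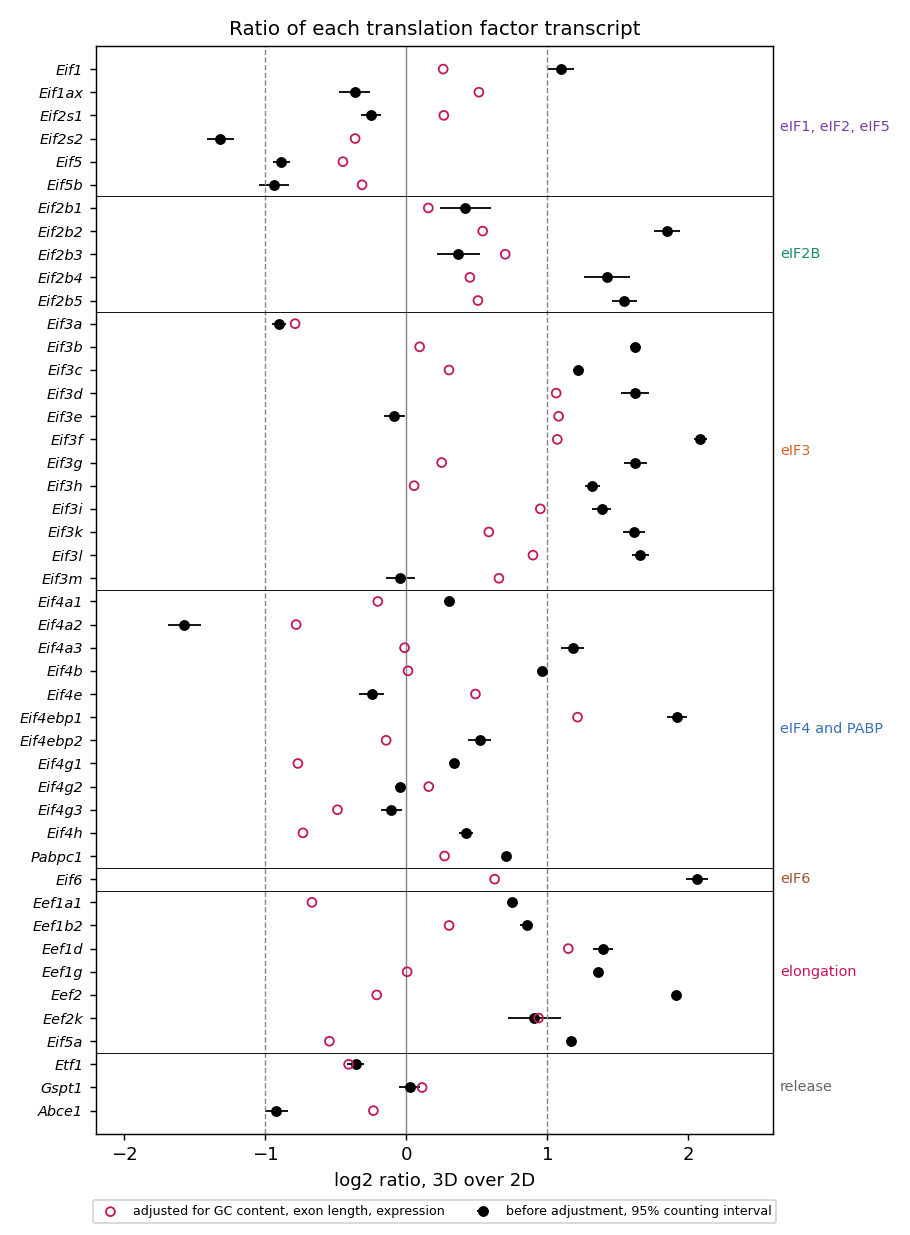
Log2 ratio of 3D over 2D for each member before adjustment (black, with the 95% counting interval) and after adjustment for GC content, exon length and expression (open circles); dashed lines mark 2-fold. Of the 20 black points past the right dashed line, 4 have open circles that also lie past it.

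The mRNAs of many translation factors begin with a run of pyrimidines, the terminal oligopyrimidine (TOP) element through which mTORC1 controls their translation, so the bases around gene starts are shown for 6 higher members with the longest runs, for 2 uncalled members that also have long runs, for a higher member with a short run and for both lower members. Sequences run from 20 bases before to 30 bases from the RefSeq gene start (GRCm38.p6), 5′ to 3′ on the gene's strand, with the longest run of C and T that opens with C in capitals. The first 6 members and Eif1 were called higher, Eif3m and Eef1a1 were not called, and the last 2 were called lower.
Eef2: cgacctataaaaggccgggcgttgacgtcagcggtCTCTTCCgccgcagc
Eif3f: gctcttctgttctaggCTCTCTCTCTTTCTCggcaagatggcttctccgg
Eif3l: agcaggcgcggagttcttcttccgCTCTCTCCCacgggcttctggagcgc
Eif3k: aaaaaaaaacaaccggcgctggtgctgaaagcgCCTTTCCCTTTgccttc
Eif2b2: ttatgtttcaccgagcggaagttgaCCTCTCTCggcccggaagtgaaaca
Eif2b5: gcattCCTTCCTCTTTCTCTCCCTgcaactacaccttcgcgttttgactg
Eif3m: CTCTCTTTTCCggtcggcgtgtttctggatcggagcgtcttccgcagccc
Eef1a1: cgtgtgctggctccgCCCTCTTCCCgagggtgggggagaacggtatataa
Eif1: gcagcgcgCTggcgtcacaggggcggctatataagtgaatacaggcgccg
Eif2s2: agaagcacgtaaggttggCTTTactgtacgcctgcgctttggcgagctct
Eif4a2: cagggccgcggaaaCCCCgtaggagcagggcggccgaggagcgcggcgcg
These windows lie at chr10:81176611-81176660 for Eef2, chr7:108934395-108934444 for Eif3f, chr15:79075203-79075252 for Eif3l, chr12:85219461-85219510 for Eif2b2, chr16:20498797-20498846 for Eif2b5, chr11:100319929-100319978 for Eif1 and chr16:23107448-23107497 for Eif4a2 on the plus strand, and at chr7:28981859-28981908 for Eif3k, chr2:105016998-105017047 for Eif3m, chr9:78481695-78481744 for Eef1a1 and chr2:154892877-154892926 for Eif2s2 on the minus strand.

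The run was 7 bases long in Eef2, 15 in Eif3f, 9 in Eif3l, 11 in Eif3k, 8 in Eif2b2 and 19 in Eif2b5. It was 11 bases in Eif3m and 10 in Eef1a1, which were not called, 2 in Eif1 and 4 in both lower members. In the other higher members with a window it was 5 bases or shorter. Abce1 and Eif4e, which are not shown and were not called, held runs of 8 and up to 10 bases, at log2 ratios of -0.92 and -0.25. The run starts 4 bases before the RefSeq start in Eif3f and 15 bases before it in Eif2b5, and at base 5 of the transcript in Eif3l, 6 in Eif2b2, 14 in Eif3k and 16 in Eef2. RefSeq had at least 1 window for 35 of the 46 members, and 9 of these (25.7%) held a run of at least 8 bases on the gene's strand in any of their windows, against 17.0% of all 27025 genes with a window. Among the 14 higher members with a window 5 held such a run, and among the 21 others 4 did. The median of the longest run was 4.5 bases in the higher members, 4 in the others and 5 over all genes. These are descriptions of the annotated starts, which can differ from the starts used in these cells.

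Of the 6 factors of the ternary complex, start codon choice and subunit joining, 1 was higher and 1 lower, with a median log2 ratio of -0.63. These were 16.7% each, against 18.7% and 20.8% of all genes. Eif2s2, the beta subunit of eIF2 (ENSMUSG00000074656, chromosome 2), had 223.6 CPM in 2D and 89.7 CPM in 3D, which was 2.49-fold lower (2.34 to 2.66). Its alpha subunit Eif2s1 (ENSMUSG00000021116, chromosome 12), whose phosphorylation shuts down initiation, had 244.3 and 205.3 CPM, a log2 ratio of -0.25. The alpha transcript was nearer its 2D level than the beta transcript, and the count ratio of Eif2s1 to Eif2s2 went from 1.09 in the 2D library to 2.29 in the 3D library, a 2.09-fold change (1.93 to 2.27, Woolf interval for counting error). Such a ratio within a library does not depend on the scaling between libraries. After adjustment the log2 ratio of Eif2s2 was -0.36 and that of Eif2s1 was 0.27, and with principal transcripts they were -0.84 and 0.42.

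Eif5, the GTPase activating protein that triggers hydrolysis on eIF2, had 446.3 CPM in 2D and 241.5 CPM in 3D, 1.85-fold lower (1.77 to 1.93). Eif5b, the GTPase that joins the large subunit, had 141.5 and 73.8 CPM, 1.92-fold lower (1.78 to 2.07). Both lay just short of the 2-fold rule and passed it under total counts, where 36.5% of all genes were called lower. Adjusted log2 ratios of Eif5 and Eif5b were -0.45 and -0.31, or -0.35 and -0.084 with principal transcripts. With adjustment for GC content alone they were 0.16 and -0.16. Eif1ax, which opens the scanning ribosome, had 105.1 and 81.6 CPM, whereas Eif1, the guard of start codon choice, was the exception of the group with 87.8 and 187.4 CPM, 2.13-fold higher (2.00 to 2.27). The count ratio of Eif1 to Eif1ax went from 0.835 to 2.30. Their GC contents were 50.9% and 39.7%, and after adjustment the difference of log2 ratios turned from 1.46 to -0.25. The call of Eif1 was lost under total counts, at a log2 ratio of 0.49. Among eIF2 genes outside the list, Eif2s3x, the gamma subunit gene on the X chromosome, had 150.9 and 92.7 CPM, and its Y-linked copy Eif2s3y had 0 counts in both libraries, which allows up to 0.209 counts per 1000000 in 2D and 0.18 in 3D.

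All 5 subunits of eIF2B, the exchange factor that recharges eIF2 with GTP, lay above a log2 ratio of 0 under TMM, and 3 were called higher. Eif2b2, the beta subunit (ENSMUSG00000004788, chromosome 12), had 76.4 CPM in 2D and 274.9 CPM in 3D, a ratio of 3.60 (3.38 to 3.83). Eif2b5, the catalytic epsilon subunit (ENSMUSG00000003235, chromosome 16), had 88.9 and 259.6 CPM, a ratio of 2.92 (2.75 to 3.10). Eif2b4, the delta subunit, had 26.2 and 70.4 CPM, a ratio of 2.68 (2.40 to 3.00). The alpha subunit Eif2b1, which binds the regulatory site, and Eif2b3, the gamma partner of epsilon, had smaller ratios, with 27.8 and 37.2 CPM and with 40.3 and 52.0 CPM. Their log2 ratios of 0.42 and 0.37 turned to -0.18 and -0.23 under total counts. After adjustment 0 of the 5 were past 2-fold, where 10.5% of all genes were called higher and 9.75% lower. Yet all 5 lay above 0, from 0.16 for Eif2b1 to 0.70 for Eif2b3, with a group median of 0.51. The spread of the levels per kilobase of transcript within eIF2B widened from 3.68-fold between the lowest and highest subunit in 2D to 9.28-fold in 3D.

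eIF3 is the large scaffold that bridges the mRNA cap complex and the small subunit. Of its 12 listed subunits 9 were higher and 0 lower, where 18.7% and 20.8% of all genes were called. Their log2 ratios ran from -0.91 to 2.08. Total counts gave 6 higher and 1 lower, against 5.59% and 36.5% of all genes. The adjustment gave 3 higher and 0 lower, against 10.5% and 9.75% of all genes. With principal transcripts it gave 1 higher and 0 lower, against 9.57% and 9.40%. The highest was Eif3f (ENSMUSG00000031029, chromosome 7, 108934417 to 108942951), with 288.1 CPM in 2D and 1221 CPM in 3D, a ratio of 4.24 (4.11 to 4.37). Eif3f kept an adjusted log2 ratio of 1.07, or 1.22 with principal transcripts, and it is the member shown above with a run of 15 pyrimidines at its start. The listed subunits outside the PCI and MPN domain core, Eif3b, Eif3d, Eif3g and Eif3i, were all higher, with ratios of 3.08, 3.08, 3.08 and 2.61. Outside the list, the genes of the loosely bound eIF3j were both called lower. Eif3j1 had 48.2 and 23.2 CPM, 2.08-fold lower (1.82 to 2.37), and Eif3j2 had 29.1 and 10.9 CPM, 2.68-fold lower (2.22 to 3.24). Their adjusted log2 ratios were -0.20 and -0.46. Eif3b, which holds the scaffold to the 40S subunit, went from 410.1 to 1263 CPM. Eif3d, which can bind the cap itself, went from 67.4 to 207.6 CPM, though 43.3% of its exonic bases overlap a gene on the other strand and the strand option of the counting is not known. Eif3g, an RNA binding subunit, had 1787 and 4215 counts, and Eif3i, a beta propeller protein, went from 159.2 to 415.6 CPM.

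Within the core of 8 PCI and MPN subunits 5 were higher and 3 were not. Eif3k and Eif3l, a pair at the edge of the core, had ratios of 3.06 (2.90 to 3.23) and 3.16 (3.03 to 3.29). Eif3h had 269.3 and 671.7 CPM, a ratio of 2.49, and Eif3c had 448.1 and 1043 CPM, a ratio of 2.33. The 3 others were Eif3a, Eif3e and Eif3m. Eif3a, the largest subunit and the one on which the core is nucleated (ENSMUSG00000024991, chromosome 19), went the other way from 652.0 to 348.1 CPM. It was 1.87-fold lower (1.81 to 1.94), and was the listed subunit past 2-fold lower under total counts. Eif3e had 207.9 and 195.9 CPM, a ratio of 0.943 (0.896 to 0.991), and Eif3m had 104.8 and 101.8 CPM, a ratio of 0.971 with an interval of 0.905 to 1.04 that holds 1. The principal transcripts of these 3 had GC contents of 44.5%, 40.3% and 44.4%, and those of the other 9 subunits ranged upward from 49.6%. After adjustment Eif3e stood at 1.08 and Eif3m at 0.66, while Eif3a stayed below 0 at -0.79; with principal transcripts the values were 0.36, -0.0024 and -0.72.

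Subunit balance differed between the libraries. Per kilobase of principal transcript, Eif3a had 127.2 CPM in 2D, which was 0.98 of the median subunit, and 67.9 CPM in 3D, which was 0.224 of it. It moved from the seventh to the lowest level of the 12 subunits. Eif3h was the highest in each library, at 208.0 and 518.7 CPM per kilobase, and Eif3d was the lowest in 2D at 35.5. The standard deviation of the log2 levels over the 12 subunits was 0.64 in the 2D and 1.06 in the 3D library. Over all 46 members it was 1.80 and 2.18, so a wider spread in 3D was not particular to eIF3. The log2 ratios of the 12 subunits correlated with the GC content of their principal transcripts at Pearson r = 0.82 and Spearman rho = 0.67.

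**Figure D4:**
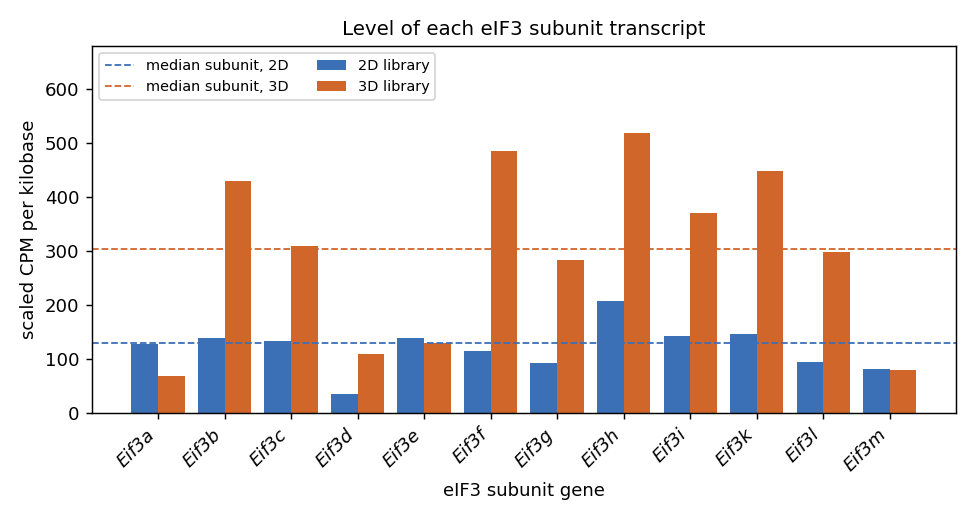
Level of each eIF3 subunit transcript in TMM-scaled CPM per kilobase of principal transcript, in the 2D (blue) and the 3D (orange) library; dashed lines mark the median subunit of each library. Bars of 9 subunits are taller in 3D, while Eif3a drops from 127.2 to 67.9 and Eif3e and Eif3m change little.

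In the eIF4 group with the poly(A) binding protein 2 of 12 members (16.7%) were higher and 1 (8.33%) was lower, so the share of higher members was near the 18.7% of all genes. The median log2 ratio was 0.38 and turned to -0.22 under total counts. Eif4ebp1, which encodes the repressor that holds eIF4E away from eIF4G until mTORC1 phosphorylates it (ENSMUSG00000031490, chromosome 8, 27260329 to 27276674), had 129.1 CPM in 2D and 487.8 CPM in 3D, a ratio of 3.78 (3.60 to 3.96). Its adjusted log2 ratio was 1.21, or 1.39 with principal transcripts. Its paralog Eif4ebp2 had 135.2 and 193.8 CPM, and their count ratio went from 0.955 to 2.52, a 2.64-fold change (2.45 to 2.84) whose log2 value was 1.40 before and 1.36 after adjustment. The target of both, the cap binding protein Eif4e, had 151.2 and 127.5 CPM, so the count ratio of Eif4e to Eif4ebp1 was 1.17 in 2D and 0.261 in 3D, 4.48-fold lower (4.15 to 4.84). After adjustment the log2 change of that ratio was -0.72 in place of -2.16.

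The 3 DEAD-box helicases of the eIF4A name differed from each other. Eif4a2 (ENSMUSG00000022884, chromosome 16, 23107444 to 23114136) had 164.3 CPM in 2D and 55.2 CPM in 3D, 2.98-fold lower (2.74 to 3.23) and the lowest ratio of the 46 members. Eif4a1, the main initiation helicase, had 850.9 and 1049 CPM, and Eif4a3, which is a core protein of the exon junction complex, had 109.1 and 247.0 CPM, a ratio of 2.26 (2.14 to 2.40). Per kilobase of transcript Eif4a1 exceeded Eif4a2 by 6.45-fold in 2D and by 23.6-fold in 3D, a 3.67-fold change (3.37 to 3.99), with a log2 value of 1.88 before and 0.58 after adjustment. Eif4a1 has a near-identical processed pseudogene, Eif4a-ps4, with 3646 and 3123 counts of its own, equal to 24.2% and 22.0% of those of Eif4a1. Adding them left the log2 ratio of Eif4a1 at 0.28 in place of 0.30. The adjusted log2 ratio of Eif4a2 was -0.78, and -1.19 with principal transcripts.

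None of the scaffold genes was called. Eif4g1, which joins cap, helicase and eIF3, had 706.6 and 894.8 CPM, Eif4g3 had 199.0 and 184.7 CPM, and Eif4g2, a relative that lacks the cap-protein binding site, had 855.5 and 831.1 CPM. Under total counts the log2 ratio of Eif4g1 turned from 0.34 to -0.26, and those of Eif4g2 and Eif4g3 were -0.64 and -0.71. Count ratios of Eif4g1 to Eif4g2 and to Eif4g3 went up 1.30-fold (1.26 to 1.35) and 1.36-fold (1.29 to 1.44), and after adjustment both log2 changes were below 0, at -0.93 and -0.28. Of the helicase cofactors, Eif4b had 619.0 and 1203 CPM, a ratio of 1.94 (1.90 to 1.99) just under the rule, and Eif4h had 356.9 and 478.4 CPM. Pabpc1, the cytoplasmic poly(A) binding protein, had 2358 and 3855 CPM, a ratio of 1.64 (1.61 to 1.66). Eif6, which keeps the 60S subunit from joining too early and acts in its maturation, stood apart with 98.1 CPM in 2D and 409.4 CPM in 3D, a ratio of 4.17 (3.95 to 4.41); its principal transcript had the highest GC content of the members, 57.9%, and its adjusted log2 ratio was 0.63.

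All 7 elongation genes lay above a log2 ratio of 0 under TMM and under total counts. Under TMM 4 were called higher (57.1%, against 18.7% of all genes). Total counts gave 1 higher, against 5.59% of all genes, and the adjustment also 1, against 10.5%. The adjusted median of the group was 0.0057. Eef2, the translocase (ENSMUSG00000034994, chromosome 10, 81176631 to 81182498), had 3511 CPM in the 2D and 13217 CPM in the 3D library, a ratio of 3.76 (3.73 to 3.80). Its share of all counts was 0.432% (0.429% to 0.435%) and 1.07% (1.07% to 1.08%). Eef1a1, which delivers aminoacyl-tRNA, had 9228 and 15480 CPM, a ratio of 1.68 (1.67 to 1.69). Per kilobase of transcript Eef1a1 was the most abundant member in both libraries, and its lead over Eef2 shrank from 4.53-fold to 2.02-fold. The adjusted log2 ratios of Eef2 and Eef1a1 were -0.21 and -0.67, below 0. With adjustment for GC content alone they were 1.16 and 1.02, or 1.19 and 1.09 with principal transcripts.

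The subunits of the eEF1B exchange complex, which reloads eEF1A with GTP, were 1.81-fold (Eef1b2, 386.6 and 698.4 CPM), 2.63-fold (Eef1d, 137.6 and 361.5 CPM) and 2.57-fold (Eef1g, 574.1 and 1475 CPM) higher. A processed pseudogene with 99.6% identity to Eef1g, Gm4366, had 4194 and 7550 counts, so the counts of Eef1g are uncertain, but with all copies added its log2 ratio was 1.33 in place of 1.36. Eef1d kept an adjusted log2 ratio of 1.15, which was 0.46 with principal transcripts. Eif5a, which relieves stalls at proline runs, had 869.2 and 1949 CPM, a ratio of 2.24 (2.20 to 2.29), and its adjusted value was -0.55. Adjustment for GC content alone left Eif5a at 0.56. Eef2k, the kinase that inactivates eEF2, was the member with the lowest level per kilobase, with 22.9 and 42.9 CPM, a ratio of 1.87 (1.65 to 2.13), and an adjusted log2 ratio of 0.94, or 1.15 with principal transcripts. The count ratio of Eef2 to Eef2k was 153.3 in 2D and 307.8 in 3D, 2.01-fold higher (1.77 to 2.28), and its log2 change was -1.15 after adjustment.

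None of the 3 termination and recycling genes was called higher or lower under TMM. Etf1, which encodes the release factor eRF1 (ENSMUSG00000024360, chromosome 18), had 330.4 and 257.7 CPM, 1.28-fold lower (1.23 to 1.34). Its GTPase partner Gspt1 had 187.4 and 190.7 CPM, a ratio of 1.02 with an interval of 0.966 to 1.07. Abce1, the recycling ATPase, had 246.7 and 130.2 CPM, 1.89-fold lower (1.79 to 2.00). It passed the rule under total counts, where 36.5% of all genes were called lower. Adjusted log2 ratios of Etf1, Gspt1 and Abce1 were -0.41, 0.11 and -0.23, or -0.15, -0.013 and -0.096 with principal transcripts. With adjustment for GC content alone they were 0.34, 0.60 and 0.31. The count ratio of Etf1 to Gspt1 went from 1.76 to 1.35, 1.30-fold lower (1.22 to 1.39).

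**Figure D5:**
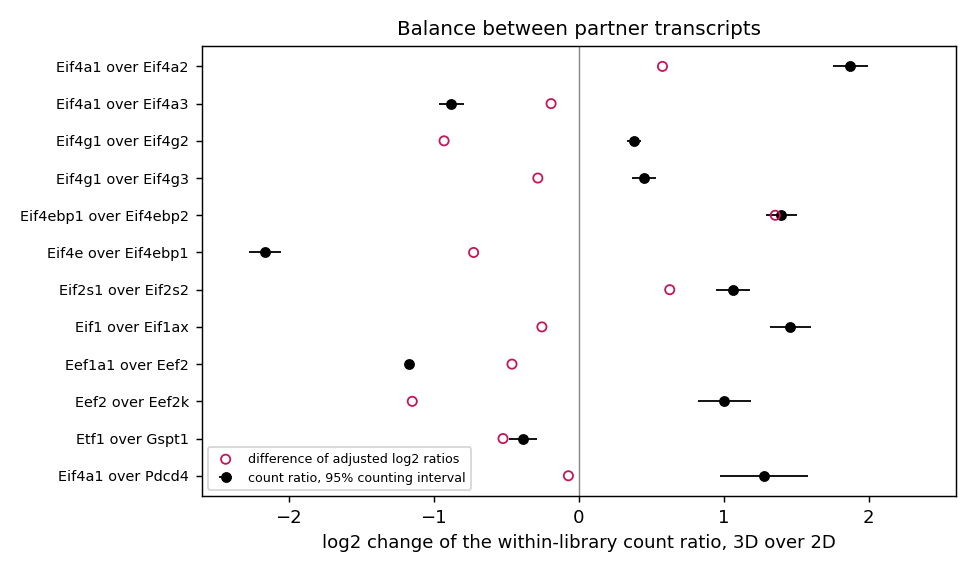
Log2 change from 2D to 3D of the count ratio of 12 gene pairs within each library (black, with the 95% counting interval) and the same difference taken from adjusted log2 ratios (open circles). Eif4ebp1 over Eif4ebp2 changes by nearly the same amount in both forms, while 5 pairs cross 0 after adjustment: Eif4g1 over Eif4g2, Eif4g1 over Eif4g3, Eif1 over Eif1ax, Eef2 over Eef2k and Eif4a1 over Pdcd4.

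Other genes of the pathway were called about as often as all genes. Of 67 genes in lists of further translation factors and their regulators, 61 were measured, of which 11 were higher and 11 lower (18.03% each, against 18.7% and 20.8% of all genes), with a median log2 ratio of -0.17. Total counts gave 3 higher and 27 lower, where that scaling called 5.59% and 36.5% of all genes. The adjustment gave 3 higher and 7 lower, where it called 10.5% and 9.75% of all genes. In the list of other initiation factors 2 of 22 were higher and 6 lower. The lower ones included Ddx3x, an RNA helicase, with 355.5 and 155.9 CPM, Eif3j2, a loosely bound eIF3 partner, with 29.1 and 10.9 CPM, and the reinitiation gene Mcts2, with 58 and 6 counts. Pabpc4, a paralog of Pabpc1, had 276.0 and 600.9 CPM. Pdcd4, an inhibitor of eIF4A, had 17.6 and 8.94 CPM.

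Both enzymes that make hypusine, the modified lysine on which eIF5A depends, were higher, Dhps at 17.8 and 60.1 CPM (3.37-fold, 2.96 to 3.85) and Dohh at 3.90 and 14.5 CPM (3.71-fold, 2.81 to 4.96). Their adjusted log2 ratios were 0.88 and 1.10, and 0.84 and 1.06 with principal transcripts. In that list of elongation factors and modifying enzymes 3 of 13 were higher and 1 was lower (23.1% and 7.69%, against 18.7% and 20.8% of all genes). The third higher gene was Eefsec, the selenocysteine factor, at 2.23-fold, and the lower gene was the methyltransferase gene Eef1akmt2, at 2.35-fold. Of 6 measured release and rescue genes, 2 (33.3%) were higher: Gtpbp1 at 2.23-fold and Trmt112, the partner of the eRF1 methyltransferase, at 2.61-fold. The median log2 ratio of the 6 was -0.30. Total counts gave 0 higher and 2 lower, against 5.59% and 36.5% of all genes. Gtpbp1 and Trmt112 then had log2 ratios of 0.56 and 0.79, and after adjustment 0.17 and 0.12. Processed copies of Trmt112 held 176 and 433 counts beside its own 678 and 1356, so its counts are uncertain. With copies added its log2 ratio was 1.45 in place of 1.39.

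Among 8 genes for the eIF2 kinases, their partners and the phosphatase subunits, 1 was higher and 2 were lower. These were 12.5% and 25.0%, against 18.7% and 20.8% of all genes. Eif2ak2, the kinase PKR that senses double-stranded RNA, had 39.8 and 8.65 CPM, 4.60-fold lower (3.78 to 5.65), and Impact, which restrains the kinase GCN2, had 49.0 and 11.7 CPM, 4.19-fold lower. Their adjusted log2 ratios were -1.44 and -1.17, and -1.24 and -1.01 with principal transcripts. Gcn1l1, the activator of GCN2, was 2.02-fold higher. Of 12 genes of mTORC1 and the MNK kinases, which act on the 4E-binding proteins and eIF4E, 3 were higher and 2 lower (25.0% and 16.7%), which was near the shares of all genes. Total counts gave 1 higher and 5 lower (5.59% and 36.5% of all genes), and the adjustment 0 higher and 1 lower (10.5% and 9.75% of all genes). Deptor, an inhibitor of mTOR, had 14.7 and 2.88 CPM, 5.10-fold lower (3.63 to 7.34; adjusted log2 ratio -1.13, or -0.86 with principal transcripts), and the S6 kinase gene Rps6kb1 had 70.5 and 23.4 CPM, 3.01-fold lower (adjusted -0.29, or -0.11). Akt1s1, which encodes the mTORC1 inhibitor PRAS40, was 3.11-fold higher (2.81 to 3.44; adjusted 0.48, or 0.33), and Tsc2 was 2.33-fold higher.

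Some counts are uncertain because of copies and overlaps. Processed pseudogenes matched 27 of the 46, but their counts reached 5% of the member's own in only 4 of these, Eif2s2, Eif3m, Eif4a1 and Eef1g. Adding all copies to their source gene moved the members' log2 ratios by up to 0.035. Reads lost to near-identical copies are not measured by this, since the rule for multiply mapped reads is not known. Exons overlapped another gene on the same strand in 9 members, by up to 9.63% of exonic bases in Eif4a2, which was called lower. Exons overlapped another gene on the other strand over at least 10% of their length in 2 members, Eif3d and Eif5b.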

How the data were processed

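The authors deposited raw counts of reads per Ensembl gene, made with Trimmomatic, HISAT2 and HTSeq on mm10 per the submitters' processing notes, from TruSeq stranded mRNA libraries per the labels' protocols. The sources used here give no versions, strand option, rule for multiply mapped reads or annotation release. Of 52550 identifiers, 52403 matched GENCODE M21 (GRCm38, the same build). Counts were scaled with TMM factors (edgeR 4.0.16, R 4.3.3), and genes whose mean reached 1 CPM were called measured. Ratios carry exact 95% intervals conditional on the summed counts; a library at 0 counts was set to 3 counts. Natural cubic splines with 4 degrees of freedom (patsy 1.0.2) adjusted log2 ratios for GC content, exon length and mean CPM, and explained 45.0% of their variance. Processed pseudogenes were matched with blastn 2.17.0 (at least 85% identity over 50% of the copy). The code was tested on simulated counts. Members and lists were chosen with earlier results of these data known. All 46 members and the partners in 12 pairs were named. Up to 4 genes of each further list were named, ranked by the interval bound nearest to 1. Eif2s3x and Eif2s3y were added to complete eIF2, and Eif3j1 to complete eIF3. Gcn1 appears under its GENCODE M21 symbol Gcn1l1.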

Additional observations from a re-analysis of the deposited data

How the results depend on the processing

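With 1 library per method, no library could be left out, and no replicate spread was measured. Under DESeq2 1.42.0 size factors, upper-quartile factors, protein-coding genes only and a pseudocount of 1 CPM, the counts stayed at 20 members higher and 2 lower. They also stayed so with a minimum mean of 5 CPM, or with more than 3 counts in a library in place of a minimum mean. Total counts gave 10 higher, 6 lower and a median log2 ratio of 0.20; 7 members turned direction. Adjustment for GC content, exon length and expression gave 5, 0 and 0.20, and with principal transcripts (added after seeing the data) 3, 1 and 0.17. Adjustment for GC content alone gave 0 lower and a median of 0.92, and with principal transcripts 0 and 0.97. A 1.5-fold rule gave 6 lower. Called members that turned direction were Eif5a (-0.55, or -0.58 with principal transcripts), Eef2 (-0.21, or -0.10), Eif4a3 (-0.013) and, for GC content alone, Eif2s2 (0.12). Log2 changes of count ratios that were past 2-fold turned for Eif1 over Eif1ax (-0.25, or -0.56), Eef2 over Eef2k (-1.15, or -1.25) and Eif4a1 over Pdcd4 (-0.070, or -0.54). Biological and technical differences that vary with GC content, length or expression cannot be told apart here. No paired analysis was possible because each culture method has 1 library.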
